A study of Homo sapiens with 5 samples.

Results

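Expression was followed for genes of 3 families that can oppose or redirect the B cell program: the ID inhibitors (ID1, ID2, ID3) with their target TCF3, the GATA factors GATA2 and GATA3, and the Notch pathway genes NOTCH1, NOTCH2, HES1 and RBPJ. These 10 genes were taken by name. Of them, 8 had a probe set in the deposited array table, out of 7713 genes measured; TCF3 and NOTCH1 had no matching probe set in the annotation used and were not analysed here. Each of the 8 had 1 probe set, so no choice between probe sets was needed. The cells were KMH2, an established Hodgkin lymphoma line, profiled on 2 arrays after 16 hours in 30 uM LY294002 and on 3 arrays after the same time in DMSO, the solvent, both in RPMI1640 with fetal calf serum. LY294002 is a small molecule used to inhibit phosphoinositide 3-kinase; mTOR and BET bromodomain proteins are further known targets. The series planned 3 arrays in each group and left out 1 array with high background. The labels do not say whether arrays of a group came from separate cultures, so the p-values rest on an array-to-array spread that may be technical. All arrays represent a single cell line.

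E proteins, among them the E2A proteins encoded by TCF3, bind DNA as helix-loop-helix dimers and switch on early B cell genes. ID proteins lack the DNA-binding region and hold E proteins in dimers that cannot bind. Notch receptors are cut after they meet a ligand, and the freed inner part joins RBPJ on DNA and turns on genes such as HES1, a repressor. In lymphoid precursors, Notch signals favour the T lineage over the B lineage, whereas NOTCH2 is needed for marginal zone B cells. GATA3 directs T cells and type 2 helper cells, and GATA2 is a factor of blood stem cells and mast cells. Hodgkin cells derive from B cells but have lost much of the B cell program, and ID2, GATA3 and Notch activity have all been linked to that loss. TCF3 is therefore the target of the ID proteins and itself promotes the B lineage, and the group is not made up of antagonists alone.

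Values are on a log2 scale, so a difference of 1 is a doubling. Array medians lay between 6.26 and 6.29, and upper quartiles between 7.59 and 7.69, the highest being that of LY294002 replicate 1. Of 13 genes that mark Hodgkin cells, 10 were above the array median on every array, among them CD40, CD70, CD83 and TNFRSF8, the gene of CD30. Of 6 measured B cell markers, 3 were above the median on every array (MS4A1, CR2 and CD22) and 3 below it (CD79A, CD79B and POU2AF1). PAX5 was not analysed here. T cell markers were above the median on every array in 7 of 9 cases, and monocyte or macrophage markers in 0 of 6. Of all 7713 genes, 3636 were above it on every array. The summed linear level of the B cell markers was 1570 to 1814 with LY294002 and 2650 to 2980 with DMSO, that of the T cell markers 1599 to 1658 and 1747 to 1854, that of the Hodgkin cell markers 7480 to 7597 and 6484 to 7196, and that of the monocyte markers 232.5 to 243.8 and 252.0 to 274.6. Their part in the results below was not tested. A sum rests mostly on the brightest probe sets. Of the 13 Hodgkin cell markers, 5 had a difference above 0 and 8 below, with a median of -0.13 (LY294002 minus DMSO, log2). Of the 6 B cell markers, 2 were above 0 and 4 below, with a median of -0.10. MS4A1, the gene of CD20, was at -0.999 and TNFRSF8 at -0.68 (LY294002 minus DMSO, log2), and neither passed. MS4A1 passed in some alternative settings, among them quantile normalization, median centring and cyclic loess. All arrays are of 1 cell line, not of a mixture of cell types. In bulk RNA, fewer cells that express a gene and less of its RNA per cell cannot be told apart. A brighter probe set need not mean a more abundant transcript. Apart from the marker sums, levels are therefore set only against the same probe set on other arrays, or against the whole array as a position.

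LY294002 was compared with DMSO to ask whether the inhibitor moves these antagonists in Hodgkin cells. None of the 8 measured genes passed the test, which was limma over all probe sets with a Benjamini-Hochberg adjusted p under 0.05. In limma, 0.908% of all genes passed (70 of 7713), so a count of 0 among 8 is near that background. At an unadjusted p under 0.05 the count was 2 of 8, NOTCH2 and HES1, both higher with LY294002, where 17.1% of all genes reached it. The groups did not overlap for NOTCH2, RBPJ and HES1, which were higher with LY294002, and for ID3, which was lower. Of all genes, 16.2% lay above and 13.4% below in that sense. The members' median difference was 0.048 and their median absolute difference 0.10, against -0.01 and 0.08 over all genes.

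**Figure D1:**
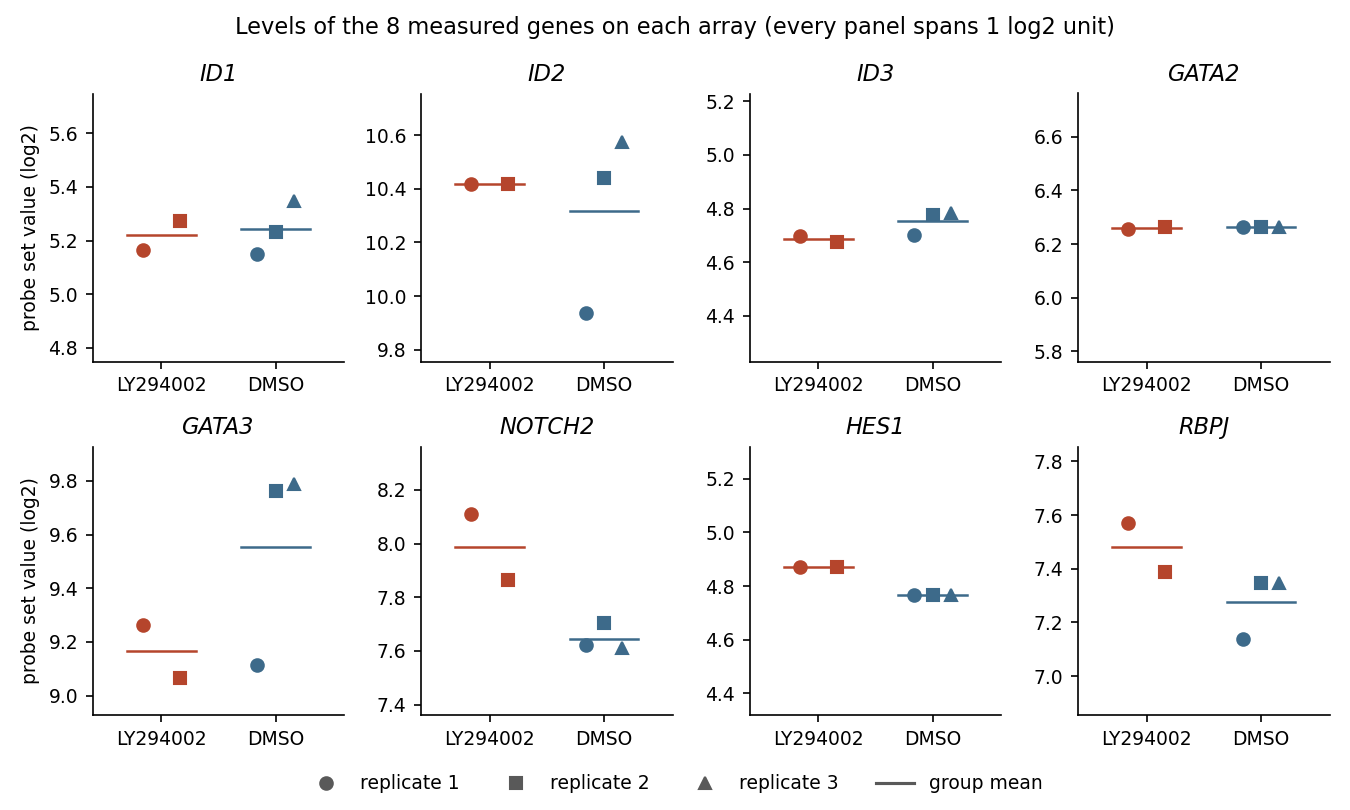
Probe set values (log2, vertical axis) of the 8 measured genes on the LY294002 arrays (left, red) and the DMSO arrays (right, blue); symbols mark the replicate, the bar is the group mean and every panel spans 1 log2 unit. NOTCH2, HES1 and RBPJ lie higher on both LY294002 arrays than on any DMSO array, and DMSO replicate 1 lies well below the other DMSO arrays for ID2 and GATA3.

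The ID genes did not differ detectably between the groups. ID2 (probe set 201565_s_at), an E protein inhibitor needed for innate lymphoid cells, was bright on every array. It stood at 10.42 on both LY294002 arrays, against 9.94, 10.44 and 10.57 on DMSO replicates 1, 2 and 3. On average 97.4% of probe sets were dimmer with LY294002 and 97.2% with DMSO. The LY294002 arrays lay inside the DMSO range, which DMSO replicate 1 widened to 0.64. The difference was 0.10 ± 0.21 (SE, n = 2 and 3; limma adjusted p = 0.798), with a 95% interval of -0.45 to 0.65. Without DMSO replicate 1 it was -0.09, so the sign of the small difference rested on that array.

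ID1 and ID3, which BMP signals induce in many cell types, were dim. ID1 (208937_s_at) had 5.16 and 5.27 with LY294002, against 5.15, 5.23 and 5.35 with DMSO. The share of probe sets that were dimmer was 24.6% with LY294002 and 24.8% with DMSO, and the groups overlapped. The difference was -0.02 ± 0.07 (SE; limma adjusted p = 0.878; 95% interval -0.22 to 0.17), and its sign was not stable across scalings, at 9.1e-05 after cyclic loess. ID3 (207826_s_at) had 4.70 and 4.67 with LY294002, against 4.70, 4.78 and 4.78 with DMSO. Its groups were separated by only 0.0059, and the difference was -0.07 ± 0.04 (SE; limma adjusted p = 0.438; 95% interval -0.17 to 0.03). For ID1 and ID3 a dim probe set can show little fall.

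NOTCH2, RBPJ and HES1 stood higher with LY294002 by small amounts, and none of them passed. NOTCH2 (212377_s_at), the receptor used by marginal zone B cells, had 8.11 and 7.86 with LY294002, against 7.62, 7.70 and 7.61 with DMSO. Both LY294002 arrays were above all DMSO arrays, with a gap of 0.16 between the groups. Its difference of 0.34 ± 0.08 (SE, n = 2 and 3) is 1.27-fold, with a 95% interval of 0.11 to 0.57, and did not pass (limma adjusted p = 0.161). The 2 LY294002 arrays differed from each other by 0.25, and leaving out LY294002 replicate 1 gave 0.22, leaving out LY294002 replicate 2 gave 0.46. Of all genes, 91.5% had a smaller absolute difference.

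RBPJ (207785_s_at), the DNA-binding partner of the cut Notch receptor, had 7.57 and 7.39 with LY294002, against 7.14, 7.35 and 7.35 with DMSO. Here too both LY294002 arrays were the highest, but LY294002 replicate 2 was only 0.04 above the nearest DMSO array. The difference was 0.20 ± 0.10 (SE; limma adjusted p = 0.391; 95% interval -0.05 to 0.46). With LY294002 replicate 1 left out it was 0.11, and with LY294002 replicate 2 left out 0.29.

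HES1 (203395_s_at), the repressor gene that Notch induces in many tissues, was dim, with 16.4% of probe sets dimmer with LY294002 and 13.5% with DMSO. It had 4.87 on both LY294002 arrays, against 4.77 on all 3 DMSO arrays. The groups were separated by 0.10, and the values within DMSO ranged over 0.0018. Array medians alone ran from 6.26 to 6.29, so that range is a poor measure of the spread between arrays. The difference was 0.11 ± 0.03 (SE), or 1.08-fold, and did not pass (limma adjusted p = 0.157; 95% interval 0.04 to 0.17). DMSO replicates 2 and 3 hold the same value to the last digit, as do arrays of a group in 38.0% of all probe sets, and how such values arose was not stated. A linear model without variance moderation, which uses only each probe set's own spread, called HES1 (adjusted p = 0.00784). The standard error of HES1 was then 0.00078, against 0.026 in limma. Over all settings tried, the difference was 0.22 to 0.46 for NOTCH2 (adjusted p = 0.0496 to 0.523), 0.11 to 0.29 for RBPJ (0.263 to 0.82) and 0.10 to 0.13 for HES1 (0.00784 to 0.557), so that none turned its sign.

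HES1 is a textbook target of RBPJ, and its promoter is printed because it holds the letters that RBPJ binds. The window runs from 250 bases before to 50 bases after the annotated start, at chr3:194135898-194136197 on the plus strand of GRCh38.p14, and is credited to RefSeq. Capitals mark the RBPJ core TGGGAA, which was searched on both strands.
HES1: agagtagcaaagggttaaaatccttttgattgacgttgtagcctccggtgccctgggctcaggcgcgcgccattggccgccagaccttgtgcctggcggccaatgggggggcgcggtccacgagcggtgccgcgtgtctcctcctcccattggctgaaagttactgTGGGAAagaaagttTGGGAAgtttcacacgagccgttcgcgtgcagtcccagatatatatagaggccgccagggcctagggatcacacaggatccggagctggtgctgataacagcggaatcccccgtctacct
The core occurs in 2 copies on the same strand, 84 and 70 bases upstream of the start, with 14 bases between their first letters. Of 35116 promoters of this length in the table, 24.0% hold at least 1 copy on either strand. The N-box CACNAG, the kind of site that HES proteins themselves bind, occurs 4 times in the HES1 window counting both strands, and 38.0% of promoters hold at least 1. Across the 10 genes the table has 20 annotated starts, and 3 of these hold the RBPJ core, 1 each for HES1, RBPJ and GATA3. A match is a description of the letters and not evidence of binding in these cells.

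**Figure D2:**
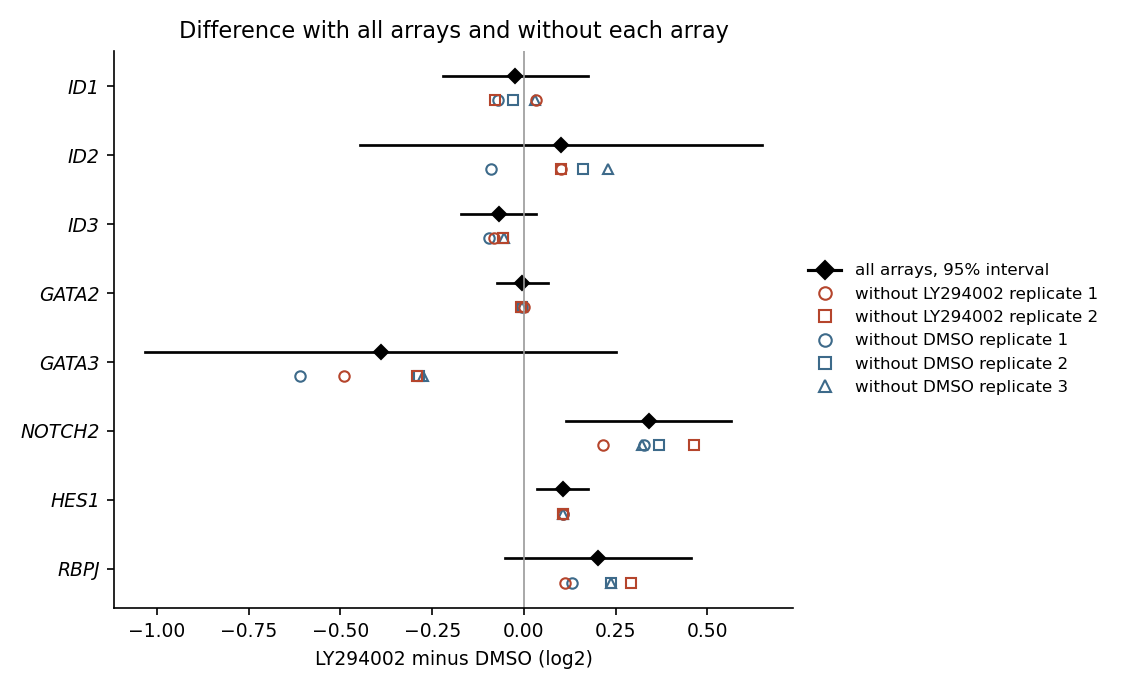
LY294002 minus DMSO (log2, horizontal axis) for each measured gene. Black diamonds and lines give the limma estimate and its 95% interval over all 5 arrays, and open symbols give the estimate without each array in turn. GATA3 moves between -0.61 and -0.27 and NOTCH2 between 0.22 and 0.46, while HES1 stays at 0.11.

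Neither of the GATA genes passed, and their values differed widely in precision. GATA3 (209604_s_at), the T lineage factor that Hodgkin cells also express, had 9.26 and 9.07 with LY294002, against 9.11, 9.76 and 9.79 with DMSO. DMSO replicate 1 lay between the LY294002 arrays, whereas DMSO replicates 2 and 3 were about 0.5 above the higher of them. The difference was -0.39 ± 0.24 (SE, n = 2 and 3; limma adjusted p = 0.45), or 0.763-fold, with a 95% interval of -1.03 to 0.25. Without DMSO replicate 1 it was -0.61 ± 0.08 (limma adjusted p = 0.137), which still did not pass, and without DMSO replicate 3 it was -0.27. Of the 8 genes, GATA3 had the largest absolute difference and also the largest standard error.

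GATA2 (209710_at), a factor of blood stem cells and mast cells, stood near the array median. It had 6.26 and 6.27 with LY294002 and 6.27 on all 3 DMSO arrays. The value was identical on 4 of the 5 arrays, which is the case for at least 4 arrays in 5.42% of probe sets. The difference was -0.0043 ± 0.03 (SE; limma adjusted p = 0.939; 95% interval -0.07 to 0.06), and it was 0.012 after cyclic loess. Without variance moderation the standard error of GATA2 was 0.0032, against 0.026 in limma. The width of the interval therefore comes mostly from the moderation and not from the values of GATA2. The origin of the nearly identical values is not known.

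**Figure D3:**
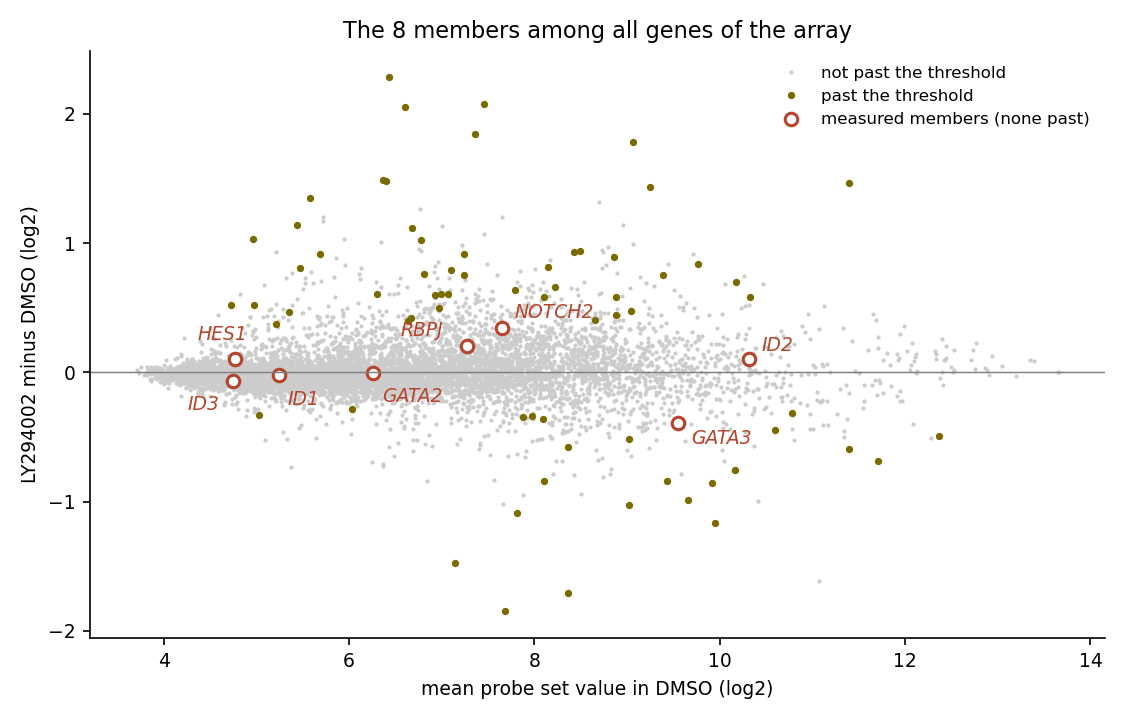
Difference between LY294002 and DMSO (log2, vertical axis) against the mean level in DMSO (log2, horizontal axis) for all 7713 genes. The 8 members are open red circles and the 70 genes past the threshold are dark points; no member is past the threshold, and ID1, ID3 and HES1 lie at the dim end.

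The genes that work with these factors were taken from 10 lists. In the lists together 125 genes were measured, and 4 passed in limma, 1 higher and 3 lower. That is 3.2% of them, against 0.908% of all genes (0.609% higher and 0.298% lower); these lists were chosen with earlier results known, and 3 of the 4 (BLNK, SPIB and CR2) are B cell genes already seen to fall. Neither the ligands and receptors nor the RBPJ partners had a gene that passed. Among 6 measured Notch ligands and receptors, 0 passed and the median difference was -0.10. NOTCH4, a receptor of endothelium, had 6.47 with LY294002 and 6.81 with DMSO on average, a difference of -0.34 ± 0.09 (SE; limma adjusted p = 0.185). DLK1, a ligand-like protein of the Notch family, was at -0.44 ± 0.20 (SE; adjusted p = 0.379). The ligand genes JAG1 and JAG2 were at -0.11 ± 0.07 and 0.04 ± 0.04 (SE). JAG1 was very dim, with 4.21% of probe sets dimmer with LY294002 and 5.64% with DMSO. It held 4.35 on LY294002 replicate 2 and on DMSO replicates 1 and 2, and 4.16 on LY294002 replicate 1.

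Among 7 measured genes of Notch processing 0 passed and the median was -0.04. ADAM10, the protease that makes the first ligand-dependent cut in the receptor, averaged 9.74 with LY294002 and 9.24 with DMSO, a difference of 0.50 ± 0.09 (SE; limma adjusted p = 0.0995). ADAM10 passed with quantile normalization, with cyclic loess and when probe sets holding identical values were removed. FURIN, which cuts the receptor on its way to the surface, was 0.15 ± 0.04 higher (adjusted p = 0.156). For ADAM10 and FURIN the lowest LY294002 value exceeded the highest DMSO value, where 16.2% of all genes lay above and 13.4% below in that sense. Of the 7, LY294002 lay above for 2 and below for 1, and the groups overlapped for 4. ADAM17, a related protease named after its values were seen, was at -0.08 ± 0.09 with overlapping groups. Of 15 RBPJ co-activators and co-repressors 0 passed, and the median was 0.07. The co-repressor CTBP1 was at 0.39 ± 0.12, TLE5, a short relative of the Groucho co-repressors, at 0.32 ± 0.15, and the co-activator MAML1 at -0.03 ± 0.03 (SE; limma adjusted p = 0.218, 0.383 and 0.59).

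Notch-induced genes did not share a direction. Of 9 measured, 4 had a difference above 0 and 5 below, with a median of -0.02. CR2, the complement receptor of mature B cells and a marker of marginal zone cells, fell by 0.76 ± 0.08 on the log2 scale (SE; limma adjusted p = 0.0437). IL2RA, the interleukin-2 receptor alpha chain, averaged 8.14 with LY294002 and 7.01 with DMSO, and its difference of 1.13 ± 0.15 did not pass (adjusted p = 0.0599). IL2RA passed with quantile normalization, median centring, cyclic loess and a trend and robust prior. It also passed without dim probe sets and without identical values, but not with array weights, the replicate block or no variance moderation. HEY1, a close relative of HES1, was at 0.06 and HEY2 at -0.06; both were named after their values were seen, and neither passed.

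A list of E proteins and other helix-loop-helix factors had 9 measured genes, and 0 passed, with a median of -0.02. Not all of these are partners of the ID proteins, and ID4 is itself an ID gene. MSC, which encodes ABF-1, an E protein antagonist found in Hodgkin cells, averaged 7.28 with LY294002 and 6.81 with DMSO. Its difference was 0.47 ± 0.17 (SE; limma adjusted p = 0.292). BHLHE40, a stress- and clock-related repressor, was at 0.60 ± 0.20 (adjusted p = 0.256). The E protein genes TCF4 and TCF12, named after their values were seen, were at -0.07 ± 0.07 and 0.04 ± 0.04 (SE). Of 18 measured genes of the E2A, EBF1 and PAX5 program, 0 rose and 2 fell, namely BLNK, which links the B cell receptor to downstream enzymes, with -1.48 ± 0.15, and SPIB, an Ets factor, with -0.98 ± 0.05 (SE; limma adjusted p = 0.0419 and 0.0168). MS4A1, of the same list and named here after its values were seen, was at -0.999 ± 0.15 (SE; limma adjusted p = 0.073). The median over that list was -0.05, with 11 differences below 0 and 7 above. The groups did not overlap for 11 of the 18, with LY294002 lower in 9 and higher in 2, where 13.4% of all genes lay lower and 16.2% higher. This list was chosen with earlier results known, so its count cannot be read as support for a fall. On every array 11 of the 18 were below the array median, and some gaps were small, 0.0078 for CD22.

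Most GATA partners were dim, so that their values say little about change. On every array 5 of the 7 family genes and 8 of the 13 target genes were below the array median, and 4 of the 7 and 8 of the 13 held identical values within a group. Of all 7713 genes, 3623 were below the median on every array and 2942 held identical values within a group. Of 7 measured genes of the GATA family and its partners 0 passed, and differences ran from -0.01 to 0.11. GATA1, the erythroid member, was at -0.01 ± 0.12 (SE; limma adjusted p = 0.969). Of 13 genes known as targets of GATA3 or GATA2, which include IL4, IL5 and IL13, 0 passed, with a median of -0.005 and a range of -0.12 to 0.17. The lowest of the brighter ones were GP1BA, at -0.12 ± 0.05, and PF4, at -0.11 ± 0.07 (SE), both platelet genes. PF4 held 6.41 on LY294002 replicate 2 and on all 3 DMSO arrays. Its difference rests on LY294002 replicate 1 alone, at 6.19. Transcription factors of other blood lineages also gave 0 of 18 genes past the threshold (median -0.02, range -0.20 to 0.93). The upper end was RORA, a nuclear receptor of innate lymphoid and helper T cells, named after its values were seen. It averaged 6.15 with LY294002 and 5.22 with DMSO, a difference of 0.93 ± 0.15 (SE; limma adjusted p = 0.0809). It passed with cyclic loess, with quantile normalization and when probe sets holding identical values were removed. LEF1, a factor of early B and T cells, was at 0.25 ± 0.07 (SE; adjusted p = 0.204), and TBX21, the factor of type 1 helper T cells, at -0.17 ± 0.07 (adjusted p = 0.356).

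Of 27 genes of the BMP and TGF-beta pathway, whose SMAD proteins induce ID genes in many cells, 1 rose and 0 fell. TGIF1, a co-repressor of SMAD proteins, averaged 6.58 with LY294002 and 5.44 with DMSO and rose by 1.14 ± 0.10 (SE; limma adjusted p = 0.0339). KLF10, a TGF-beta-induced repressor, was at 0.38 ± 0.26 (adjusted p = 0.469). The median of the list was 0.01, near the -0.01 of all genes.

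**Figure D4:**
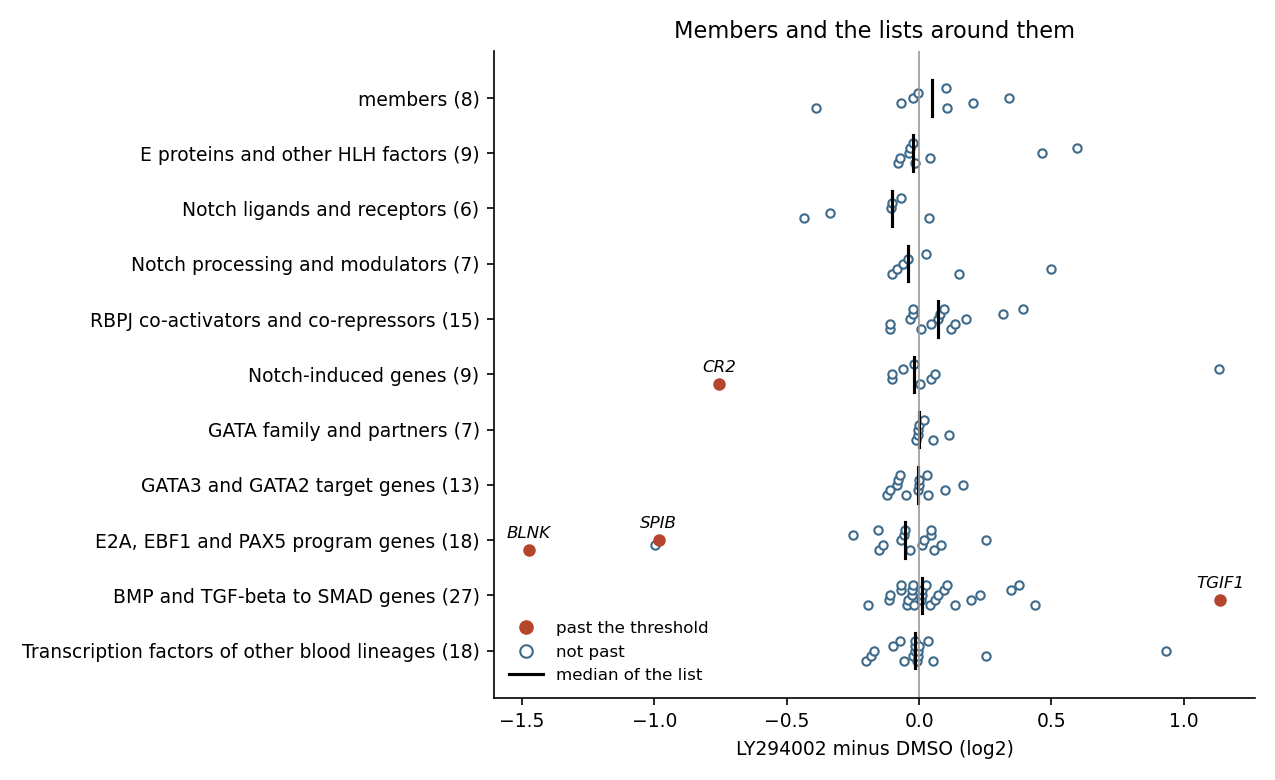
LY294002 minus DMSO (log2, horizontal axis) for the measured members and for each of the 10 lists, with the number of measured genes in brackets. Filled points passed the limma threshold and are named, open points did not, and black bars are list medians. CR2, BLNK and SPIB stand at the low end, as does MS4A1 at -0.999, which did not pass. TGIF1 stands at the high end, as does IL2RA at 1.13, which did not pass.

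With any 1 DMSO array left out, 0 of the 125 listed genes passed, and 17 to 18 had an unadjusted p under 0.05. Those fits called only 0 to 4 of all 8746 probe sets. The count of 0 therefore cannot tell whether the 4 listed genes that passed rest on 1 array.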

How the data were processed

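The deposited values are log2 summaries per probe set. Per the submitters' processing notes the authors used affy, an R package; its version and the summary method were not stated. Quartiles of the 5 columns were close, though the upper quartile of LY294002 replicate 1 was 7.69, against 7.59 to 7.62 on the others. The values were used as deposited. After quantile normalization the difference was 0.28 for NOTCH2 and 0.15 for RBPJ, against 0.34 and 0.20 as deposited. For HES1 it was 0.13 against 0.11. The part of the wider array in these differences was not tested. After removal of 47 controls, 8746 probe sets entered the fit. Of these, 7840 had 1 gene symbol in the platform annotation, 388 had several and 518 had none. The brightest probe set stood for a gene, which gave 7713 genes. LY294002 was compared with DMSO by limma 3.58.1 (lmFit, eBayes; R 4.3.3), with 3 residual degrees of freedom; p-values were adjusted by Benjamini-Hochberg over all 8746, with a threshold of 0.05. The fit was tested on simulated data. Errors are its standard errors, and the number of arrays limits the precision. Probe sets ending in _s_at, 7 of the 8 here, can bind several transcripts.

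Members and lists were chosen with earlier results of these data known. Named from each list were the genes past the threshold and, up to 2 a list, the largest differences among brighter genes, and MSC, MAML1, JAG1 and JAG2 by name. A set of 14 alternatives was planned, and leaving out probe sets with identical values was added after seeing the data. Figures were drawn with matplotlib 3.10.9.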

Additional observations from a re-analysis of the deposited data

How the results depend on the processing

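No member passed in 13 of the 15 alternatives. In each of the other two 1 member passed: HES1 (0.11) without variance moderation, and NOTCH2 (0.34, adjusted p = 0.0496) without probe sets that hold identical values within a group, which keeps 4 members. The sign turned for ID1 (9.1e-05 after cyclic loess, 0.029 with the replicate block, -0.078 to 0.032 without 1 array), for ID2 (-0.089 to 0.23 without 1 array) and for GATA2 (0.012 after cyclic loess); the cause was not tested. Probe sets past the threshold numbered 84, and 348 after quantile normalization, 309 after cyclic loess, 178 after median centring, 240 without dim probe sets, 587 without identical values, 22 with array weights and 1 without moderation. With the replicate block the count was 0 (925 at an unadjusted p under 0.05), and it was 0 to 4 without 1 array (1064 to 2370 unadjusted). Listed genes past it were 4, and 8 after quantile normalization or cyclic loess, 9 without identical values, 1 with array weights, 0 without moderation or with the block, and 0 to 0 without 1 array. The titles number replicates but state no pairing; the replicate 1 minus 2 differences of the groups correlated at -0.105 across 8746 probe sets. With 1 LY294002 array the lone array is assumed to vary like the DMSO arrays. List medians moved by more than the spread between DMSO arrays in 68 of 150 values.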

Other observations

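DMSO replicate 1 was at least 0.5 below both other DMSO arrays for 25 genes, 0.324% of those measured, and 2 of the 25 were ID2 and GATA3. It was at least 0.5 above both for a further 18. DMSO replicate 2 was that far below both others for 1 gene and DMSO replicate 3 for 3 genes, and neither was that far above for any gene (0 each). The 25 also held DUSP1 and DUSP2, phosphatases of MAP kinases, NFKBIA, the inhibitor of NF-kB, the cytokine gene TNF, and the Krüppel-like factor genes KLF6 and KLF10. NFKBIA had 11.05 and 10.98 with LY294002, against 9.85, 10.46 and 10.48 on DMSO replicates 1, 2 and 3. Of the 25 genes, 11 had both LY294002 arrays below DMSO replicates 2 and 3, among them GATA3, ID2, SNN, UROD and ATOX1. Another 9 had both above, among them NFKBIA, TNF, KLF6, KLF10, DUSP1 and DUSP2, and 5 were between or mixed. The share of all genes that separate in this way was not computed, so the split is only a description. ID2 had the smallest gap of the 25, at 0.502. Its LY294002 arrays, both at 10.42, lay only just below DMSO replicate 2, at 10.44. DMSO replicate 1 was the lowest DMSO array for 6 of the 8 members, and for 33.7% of all genes. These genes were chosen after their values were seen.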
